A study of Homo sapiens with 4 samples.

Results

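The inhibitors of cyclin-dependent kinases (CDKs) and the retinoblastoma (RB) family were examined as 10 named genes out of the 59050 gene symbols counted in 4 RNA-seq libraries. The 10 genes were taken by symbol, with no threshold on their counts. They were the CIP/KIP genes CDKN1A, CDKN1B and CDKN1C, the INK4 genes CDKN2A, CDKN2B, CDKN2C and CDKN2D, and the pocket protein genes RB1, RBL1 and RBL2. HepG2, a line grown from a human liver cancer, is the cell named in the labels, and all 10 genes were listed in each library. There were 2 libraries of untreated cells (0 h, titled as without p53 although no removal of p53 is described) and 2 of cells given doxorubicin at 1 ug/ml for 24 h. Doxorubicin is a drug that poisons topoisomerase II and breaks DNA, and it was given here to raise p53. As labelled, drug and time (0 h against 24 h) go together, so their parts in any change cannot be told apart. A treatment tag on the treated libraries names a miRNA experiment, and the titles and the treatment protocol were followed in its place.

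Progress from G1 into S phase requires CDK4 or CDK6 with a D cyclin and CDK2 with cyclin E or A, which phosphorylate the pocket proteins. Unphosphorylated pocket proteins hold E2F factors and keep the genes of DNA synthesis down. INK4 proteins bind CDK4 and CDK6 alone, while CIP/KIP proteins bind complexes of cyclin and CDK more widely, CDK2 included. CDKN1A, which encodes p21, is a direct target of p53, and through p21, the pocket proteins and the DREAM complex p53 lowers the genes of the cell cycle. CDKN2A encodes p16 and, from another first exon and reading frame, the MDM2 inhibitor p14ARF. A count per gene cannot separate these transcripts.

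The libraries held between 27572740 and 36272180 counts, so that 3 counts corresponded to between 0.0827 and 0.109 CPM (counts per 1000000 counts of the library). Untreated replicate 2 stood apart, with a Pearson correlation of log2 CPM across genes between 0.883 and 0.887 with the other libraries, while the lowest correlation among those 3 was 0.975. The defining transcripts of hepatocytes were at or near 0 (at most 3 counts for ALB, and between 0 and 7 of 14 liver markers at 0 counts), so the cells are called by their label here. The liver markers nonetheless moved with the treatment, summing to 1.30 and 4.78 CPM in untreated cells and to 16.8 and 20.1 CPM in treated cells. Most of the treated sums came from FGG, a chain of fibrinogen, which had 6 and 3 counts in untreated and 335 and 386 in treated cells. The 10 epithelial markers, nearly all of their counts from KRT7, KRT8, KRT17 and KRT18, summed to 9298 and 8434 CPM in untreated cells and to 7608 and 6417 CPM in treated cells, while EPCAM had at most 7 counts and CDH1 at most 21. Within that sum KRT8 fell from 4105 and 3968 CPM to 2440 and 2088 CPM. KRT17 went the other way, from 929 and 1223 CPM to 1587 and 1322 CPM, while KRT7 and KRT18 overlapped between groups. The sums of the 8 fibroblast markers were 978 and 887 CPM in untreated cells and 1294 and 1118 CPM in treated cells. VIM, the largest of them, rose from 752 and 718 CPM to 1011 and 833 CPM. LUM rose from 65.4 and 49.3 CPM to 135 and 163 CPM, and DCN from 0.469 and 0.623 CPM to 7.69 and 6.85 CPM. COL3A1 fell from 70.0 and 69.1 CPM to 55.8 and 46.0 CPM, and COL1A1, PDGFRB and THY1 overlapped between groups. The 5 endothelial markers summed to 10.0 and 5.33 CPM in untreated cells and to 3.64 and 2.90 CPM in treated cells, with CDH5 going from 8.52 and 3.29 CPM to 1.46 and 0.943 CPM. Groups did not overlap in any of these 4 sums, although single markers did not all move with their sum. The 8 blood markers summed to between 1.05 and 19.2 CPM, and the highest value was that of untreated replicate 2. Most of that value came from CD14, at 16.7 CPM, while CD3E, CD68 and HBB had 0 counts in that library. The labels name HepG2 alone, and whether any of these transcripts came from other cell types was not tested. In these bulk libraries a change in the make-up of the cells and a change in RNA per cell cannot be told apart. The fitted changes of the 10 genes are given with and without untreated replicate 2.

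The genes lie apart in the genome except for the INK4 pair on chromosome 9 (GRCh38, GENCODE). CDKN1A spans chr6:36676460-36687337, CDKN1B chr12:12685498-12722369 and CDKN1C chr11:2883213-2885775. CDKN2A at chr9:21967752-21995301 and CDKN2B at chr9:22002903-22009305 are neighbours on the minus strand, while CDKN2C spans chr1:50960745-50974634 and CDKN2D chr19:10566460-10569059. RB1 spans chr13:48303744-48599436, RBL1 chr20:36996349-37095997 and RBL2 chr16:53433977-53491648. Reads were counted over the exons of each gene.

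Matches to p53 and E2F sites were searched near the start sites of these genes in the reference genome (GRCh38). They were sought by letters alone, since the comparison concerns p53 activation and the RB pathway. A p53 site is made of a pair of half-sites of 10 bases, and sites of 20 bases with at most 2 mismatches to the p53 consensus were searched within 5000 bases before each RefSeq start site. CDKN1A had 2 of them and CDKN2C had 1, while the other 7 genes with a start site in the RefSeq table had 0. For RB1 the start site in that table lies 172706 bases inside the gene, so the region before its main promoter was not searched. Such a site was found before 12.8% of all 35116 start sites of that table, and more than 1 site before 1.12%. The sites of CDKN1A, on the strand of the gene, are shown with bases that match the consensus in capitals.
CDKN1A site at chr6:36676449-36676468: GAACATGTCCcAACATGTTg
CDKN1A site at chr6:36677331-36677350: GAAgAAGaCTGGGCATGTCT

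The sites lay 2265 and 1383 bases before the start site at position 36678714 of chromosome 6. The farther of them overlaps the first bases of the gene as GENCODE draws it. The site of CDKN2C lay 3140 bases before one of its start sites, inside the gene as GENCODE draws it. E2F words (TTTCCCGC, TTTCGCGC, TTTGCCGC and TTTGGCGC, on both strands) were searched in the RefSeq promoter windows, each of which runs from 250 bases before to 50 after a start site. They were found in 3.31% of all windows, and 0.145% of windows held more than 1. Among the 13 windows of 9 genes (CDKN1C had none in the table), RBL1 alone had a match, and it held 2. Its window is shown on the strand of the gene with the words in capitals, since RBL1 is both a partner and a target of E2F.
RBL1 promoter at chr20:37095948-37096247: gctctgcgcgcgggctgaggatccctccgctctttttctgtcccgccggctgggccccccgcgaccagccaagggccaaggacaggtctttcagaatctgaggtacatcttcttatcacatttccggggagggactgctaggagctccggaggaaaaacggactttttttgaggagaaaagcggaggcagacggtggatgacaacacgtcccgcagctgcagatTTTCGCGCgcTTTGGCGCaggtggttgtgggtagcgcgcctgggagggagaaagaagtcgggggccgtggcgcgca

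The words began 26 and 16 bases before the start site of RBL1. The window listed for RB1 lies 172706 bases inside the gene, at an inner start site, so it does not describe the main promoter of RB1. A match or its absence in these windows is a description of letters and does not show binding.

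In untreated cells the genes spanned a wide range of levels, with p21 and the CDKN2A products at the top and the pocket proteins and CDKN1C at the bottom. Levels were compared between genes as CPM per kilobase of exon (RPKM), over all exons of each gene. CDKN1A had 154.8 and 353 RPKM in untreated replicates 1 and 2 (mean 254 ± 140, SD, n = 2), and CDKN2A had 157 and 245 RPKM (201 ± 62.0). These genes overlapped in their ranges and changed places with the length used. Over the longest protein-coding transcript (1052 bp for CDKN2A against 2713 bp for all its exons), CDKN2A came first with a mean of 518 RPKM against 275 for CDKN1A.

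Below them followed CDKN2C, which encodes p18, with 29.5 and 79.0 RPKM, and CDKN2B, which encodes p15, with 16.4 and 47.1 RPKM. CDKN2D, which encodes p19, had 5.53 and 38.0 RPKM, the widest relative gap of the 10 genes between untreated libraries. CDKN1B, which encodes p27, had 8.51 and 18.3 RPKM. The pocket proteins were lower than all of these on average, although RB1 was above CDKN2D in untreated replicate 1, with 6.80 and 2.32 RPKM for RB1, 4.57 and 1.78 for RBL2 (p130), and 2.56 and 0.530 for RBL1 (p107). CDKN1C, the imprinted gene of p57, was lowest on average with 0.454 and 1.09 RPKM, from 32 and 61 counts. Of the 9 pairs of neighbours in this order, 7 overlapped between their untreated libraries. The steps that did not overlap were those from CDKN2A to CDKN2C and from CDKN1B to RB1.

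**Figure D1:**
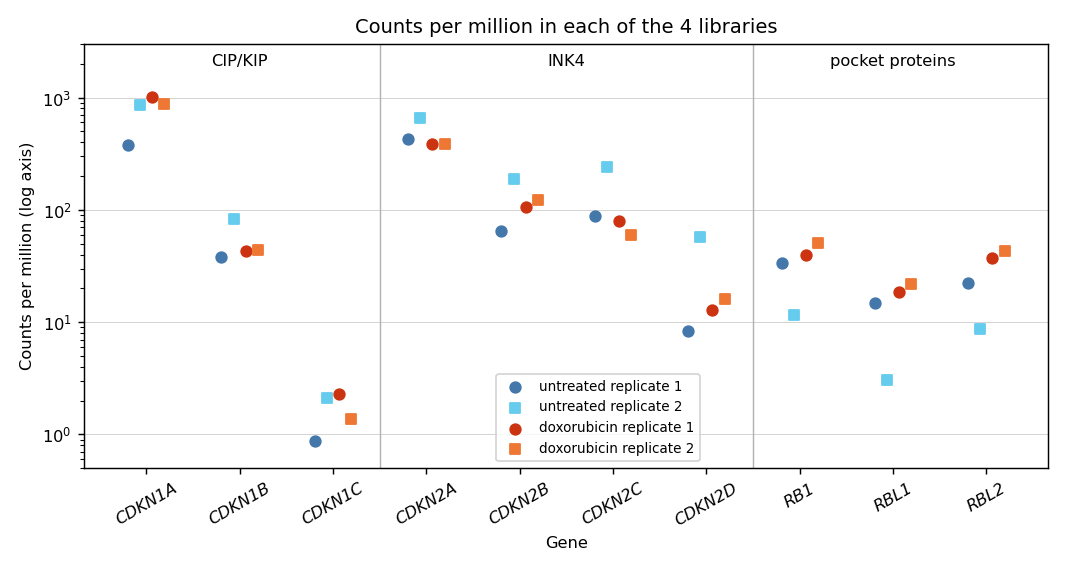
CPM (log axis) of the 10 genes in the 4 libraries, by family, with 1 point per library. Untreated replicate 2 lies above the other libraries in CDKN1B and in all 4 INK4 genes and below them in the 3 pocket protein genes, while CDKN1A is lowest in untreated replicate 1.

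Summed over each family, the libraries differed in balance. INK4 transcripts came to 208 and 409 RPKM in untreated cells and to 204.8 and 204.9 RPKM in treated cells. CIP/KIP transcripts came to 164 and 372 RPKM in untreated cells and 419 and 369 RPKM in treated cells. Pocket protein transcripts came to 13.9 and 4.63 RPKM in untreated cells and 18.7 and 22.7 RPKM in treated cells. The INK4 sum was 15.0 and 88.3 times that of the pocket proteins in untreated replicates 1 and 2, and 10.9 and 9.01 times in treated replicates 1 and 2. The ratio of untreated replicate 2 was thus far outside the range of the other 3. These ratios depend on the length taken for CDKN2A. Over the longest protein-coding transcript, a setting added after the data were seen, the untreated ratios were 32.0 and 169 and the treated ratios 22.6 and 18.6, so that the libraries kept their order.

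Each family kept the same first member in all 4 libraries. CDKN1A made up between 94.5% and 97.4% of the CIP/KIP sum, and CDKN2A between 59.9% and 75.3% of the INK4 sum, or between 78.7% and 88.3% over the longest protein-coding transcript. RB1 was the first pocket gene in each library, with between 42.4% and 50.2% of the sum, but RBL2 was close to it in treated cells. The share of RBL2 was 32.8% and 38.4% in untreated cells, and in treated cells it was 40.7% and 38.9%. Untreated replicate 2 had the lowest share of CDKN2A in its family and the highest share of CDKN2D, at 9.30% against 2.65% in untreated replicate 1.

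**Figure D2:**
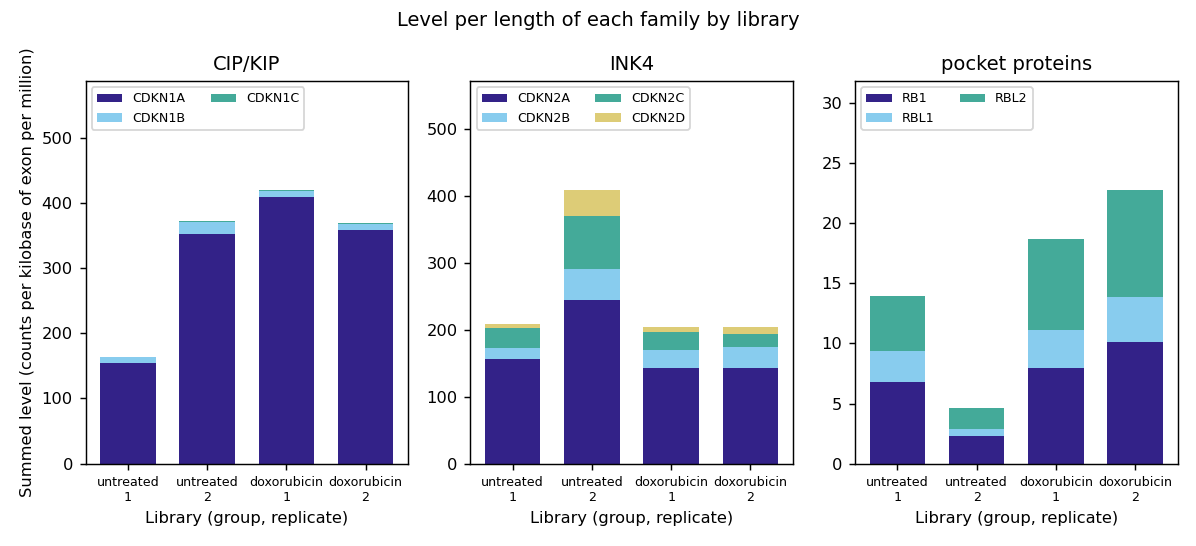
Level per length (RPKM, CPM per kilobase of exon) of the 3 families in each library, with bars stacked by gene from 0 and a separate axis for each family. CDKN1A fills most of each CIP/KIP bar, the INK4 bar of untreated replicate 2 reaches 409 against between 204.8 and 208 in the other libraries, and its pocket protein bar is the lowest at 4.63.

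To find which of the 10 genes changed with doxorubicin, treated and untreated libraries were compared by the quasi-likelihood test of edgeR over all 17479 genes that passed the filter on low counts, which all 10 members did. A gene was called where its Benjamini-Hochberg adjusted p-value was under 0.05 and its change was 1 or more in either direction on the log2 scale. Of the 10 genes 0 were called, as were 0% of all genes tested, and the exact test and likelihood ratio test of edgeR and DESeq2 also called 0 of the 10. At an unadjusted p-value under 0.05 there was 1 of the 10 genes, CDKN2C, against 4.39% of all genes in this edgeR test. The log2 fold change was above 0 in 5 of the 10 and below 0 in 5, and its median was -0.06 against 0.01 over all genes tested. The values of each gene follow, in CPM for single libraries and as log2 fold changes for the fit. A fit without 1 untreated library takes its spread from the treated pair alone. Its standard errors and calls thus hold no spread between untreated libraries, and a smaller standard error there does not mean better precision.

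CDKN1A had 380.1 and 866 CPM in untreated replicates 1 and 2, and 1003 and 880.3 CPM in treated replicates 1 and 2. Both treated libraries lay above both untreated ones, as in 30.3% of all genes tested, but untreated replicate 2 nearly reached them. The log2 fold change was 0.44 (standard error 0.44, edgeR adjusted p-value 0.800). Treated cells had on average 2.48 times the CPM of untreated replicate 1 and 1.09 times that of untreated replicate 2. Without untreated replicate 2 the log2 fold change was 1.16 (standard error 0.23, edgeR adjusted p-value 3.42e-05), and CDKN1A was then the 1 gene of the 10 called. In that fit the single untreated library was assumed to vary like the treated pair, and it called 815 of 18356 genes. Without untreated replicate 1 the value was 0.04 (standard error 0.22).

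CDKN1B had 38.2 and 82.2 CPM in untreated cells and 42.8 and 43.5 CPM in treated cells. The treated libraries agreed closely and fell between the untreated ones. The log2 fold change of -0.64 (standard error 0.46) became 0.03 (standard error 0.25) without untreated replicate 2. p27 is largely set by the decay of its protein, which mRNA does not show. CDKN1C had 0.882 and 2.11 CPM in untreated cells and 2.27 and 1.38 CPM in treated cells, from 78 and 38 counts in the latter. Its groups overlapped, and its log2 fold change of 0.18 had a standard error of 0.68.

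CDKN2A had 426 and 664 CPM in untreated cells and 389.1 and 389.4 CPM in treated cells. Both treated libraries lay below both untreated ones, as in 11.5% of all genes tested. The log2 fold change was -0.64 (standard error 0.32, edgeR adjusted p-value 0.773), and -0.28 (standard error 0.22) without untreated replicate 2. CDKN2B, its neighbour on chromosome 9, had 65.3 and 187 CPM in untreated cells and 106 and 123 CPM in treated cells. The treated values lay within the untreated range, and the log2 fold change of -0.30 (standard error 0.53) turned to 0.66 (standard error 0.24, edgeR adjusted p-value 0.0701) without untreated replicate 2.

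CDKN2C had 89.0 and 238 CPM in untreated cells and 78.9 and 59.3 CPM in treated cells. It was the other INK4 gene in which both treated libraries lay below both untreated ones. Its log2 fold change was -1.39 (standard error 0.54, edgeR adjusted p-value 0.773), and without untreated replicate 2 it was -0.51 (standard error 0.23, edgeR adjusted p-value 0.190). CDKN2D had 8.33 and 57.2 CPM in untreated cells and 12.8 and 16.2 CPM in treated cells. Untreated replicate 2 had 6.88 times the CPM of untreated replicate 1, and both treated libraries lay between them. The log2 fold change of CDKN2D was -1.33 (standard error 0.88) with all libraries and 0.65 (standard error 0.29) without untreated replicate 2. Of the 4 INK4 genes, 4 were thus below 0 with all libraries, and 2 were below and 2 above 0 without untreated replicate 2.

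RB1 had 33.9 and 11.6 CPM in untreated cells and 39.6 and 50.7 CPM in treated cells. RBL1 had 14.9 and 3.08 CPM in untreated cells and 18.4 and 21.8 CPM in treated cells. RBL2 had 22.2 and 8.62 CPM in untreated cells and 36.95 and 42.9 CPM in treated cells. In all 3 genes both treated libraries lay above both untreated ones, a pattern that 30.3% of all genes tested had, and untreated replicate 2 was the lowest library. The log2 fold changes were 0.82 for RB1 (standard error 0.58), 0.99 for RBL1 (standard error 0.75) and 1.21 for RBL2 (standard error 0.54, edgeR adjusted p-value 0.773). Without untreated replicate 2 the 3 values stayed above 0, at 0.26 (standard error 0.25), 0.29 (standard error 0.27) and 0.70 (standard error 0.26). RBL2, which encodes the pocket protein of quiescent cells and of the DREAM complex, then had the largest of the 3 values. It was below the log2 fold change of 1 that a call required. Its treated mean was 1.80 times the CPM of untreated replicate 1, against 1.33 times for RB1 and 1.35 times for RBL1.

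**Figure D3:**
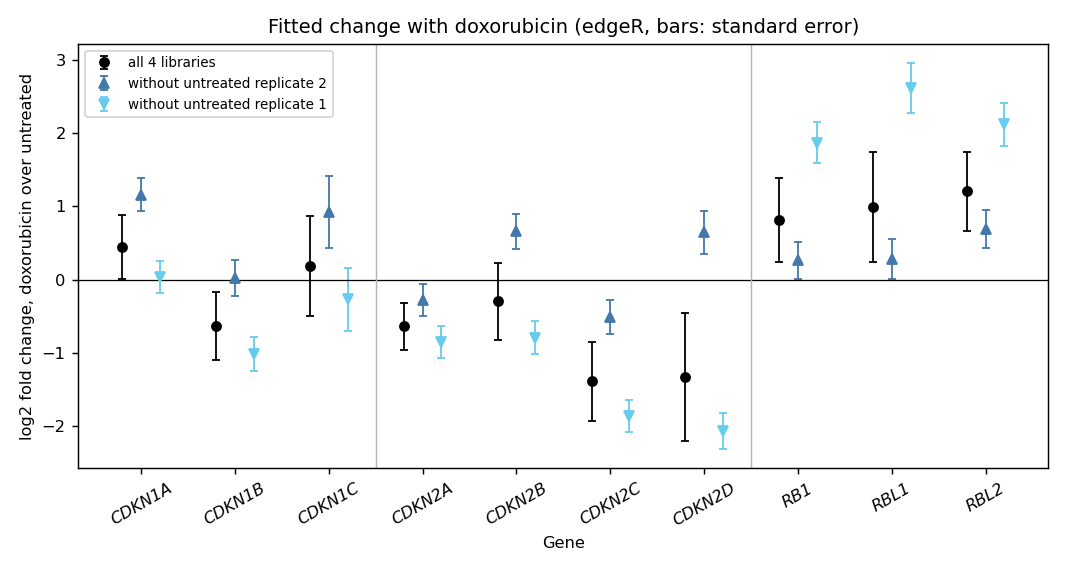
Fitted log2 fold change of doxorubicin over untreated libraries for the 10 genes (edgeR), with bars of 1 standard error, for all 4 libraries and with either untreated library left out. With an untreated library left out, the bars rest on the spread of the treated pair alone. CDKN1A moves from 0.04 to 1.16 and CDKN2D from -2.07 to 0.65 with the choice of untreated library, while CDKN2A and CDKN2C stay below 0 and the pocket proteins above 0 in these 3 fits.

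Of the 10 genes, 6 had no overlap between groups, in a background of 41.8% of all genes tested with no overlap in either direction. The same 6 genes kept their sign in all 4 fits that left out 1 library, which the lack of overlap nearly fixes in advance. These were CDKN2A and CDKN2C below 0 and CDKN1A, RB1, RBL1 and RBL2 above 0, although the value of CDKN1A without untreated replicate 1 was 0.04. Without untreated replicate 1 the edgeR test called 6 of the 10 genes, against 8697 of 19606 genes in all. These were CDKN1B (-1.02), CDKN2C (-1.87) and CDKN2D (-2.07) as lower and RB1 (1.87), RBL1 (2.62) and RBL2 (2.12) as higher. None of these 6 was the gene called without untreated replicate 2. The ratio of replicate 2 to replicate 1 in CPM was between 0.606 (CDKN1C) and 1.28 (RB1) in the treated pair. In the untreated pair it was between 0.207 (RBL1) and 6.88 (CDKN2D).

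Untreated replicate 2 was the highest library in 5 of the 10 genes and the lowest in 3. Over all genes tested it was the highest in 36.6% and the lowest in 45.0%. Its difference from the mean of the other libraries, in log2 CPM, went with transcript length and base composition. Among the 14558 tested genes with both values (83.3%), its median was 0.33 in the shortest of 3 equal classes of transcripts and -0.66 in the longest. It was -0.45 in the lowest of 3 classes of GC content and 0.23 in the highest. The 3 pocket genes fell in the longest and lowest-GC classes, with transcripts of 4768, 5686 and 4854 bp and a GC content of 37.1%, 40.0% and 42.8%. Their differences were -1.71, -2.44 and -1.82, while the 2289 genes of that class had a median of -0.74 and a range from -2.10 to 0.63 between their 10th and 90th percentiles.

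CDKN1A, CDKN1C, CDKN2A and CDKN2D fell in the shortest and highest-GC classes, where the 2203 genes had a median difference of 0.52. Their own differences were 0.42, 0.66, 0.83 and 2.35. CDKN1B, with 4335 bp and a GC content of 42.7%, and CDKN2B, with 3853 bp and 44.2%, were also higher in untreated replicate 2, by 1.09 and 1.08. CDKN2C, with 2904 bp and a GC content of 58.1%, was higher by 1.77. The fitted log2 fold change followed the same classes, with a median of 0.39 over the long, low-GC genes and -0.34 over the short, high-GC genes. Without untreated replicate 2 these medians were 0.15 and -0.05. The part of length and base composition in the changes of the 10 genes was not tested.

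**Figure D4:**
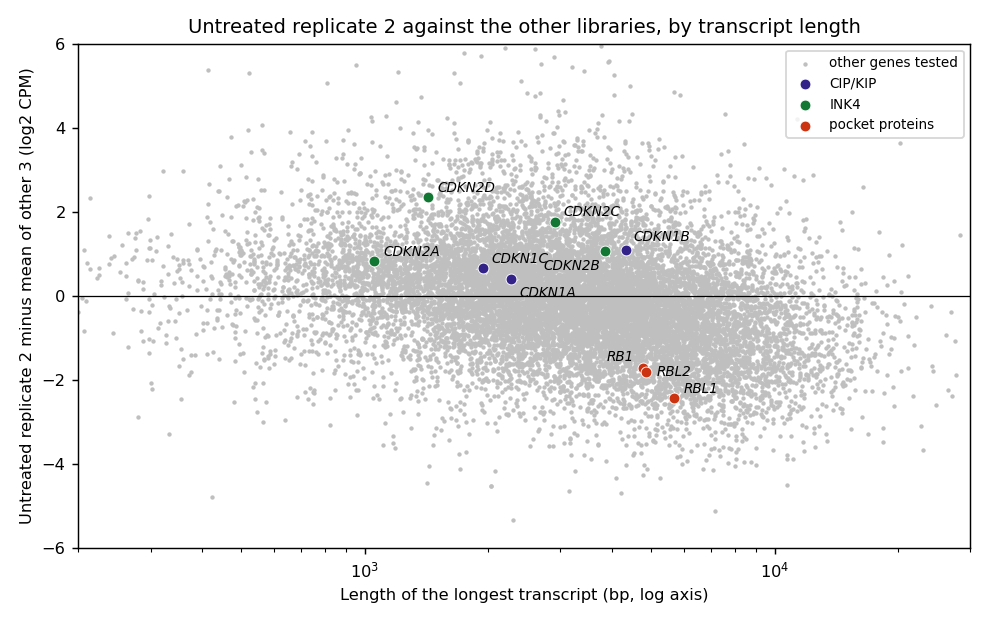
Difference of untreated replicate 2 from the mean of the other 3 libraries in log2 CPM, against the length of the longest transcript (log axis), with 1 point per tested gene and the 10 genes coloured by family (164 of 14558 genes lie outside the axes). The cloud slopes down with length, the pocket proteins lie between -1.71 and -2.44 at its long end, and the CDK inhibitors lie above 0.

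Transcripts that overlap the spans of the 10 genes were examined, because the use of strand in counting was not stated. Without strand, a read in exons shared by antisense partners could be given to either gene or left out. Overlap was taken over whole gene spans, so such a partner need not share an exon with the member, and shared exons were not examined. DINOL, a long noncoding RNA on the opposite strand just before the main start of CDKN1A (chromosome 6, 36677609 to 36678559), had 2 and 281 counts in untreated replicates 1 and 2 and 11 and 6 counts in treated cells. It was thus high in untreated replicate 2 alone, at 9.73 CPM, where CDKN1A had 866 CPM, and its part in that value was not tested. CDKN2B-AS1, also known as ANRIL, runs opposite to both CDKN2A and CDKN2B and had between 1.73 and 3.01 CPM. RCBTB2, on the opposite strand inside the span of RB1, had 2.37 and 13.1 CPM in untreated cells and 3.93 and 5.51 CPM in treated cells. In untreated replicate 2 it exceeded RB1, which had 11.6 CPM there. AKTIP, which meets the 3' end of RBL2, had between 14.7 and 24.2 CPM. GPR19 opposite CDKN1B and LPAR6 inside the span of RB1 had at most 0.254 CPM, and each of the other overlapping transcripts listed in the counts had at most 4 counts in a library.

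The patterns most like those of CDKN1A and CDKN2A over the 4 libraries were sought by the root mean square difference of log2 CPM centred on each gene. For CDKN1A the nearest were AC112694.1, HMCN1 and POLD4, with differences of 0.05, 0.05 and 0.06, and 20 of the tested genes lay within 0.1. HMCN1 and AC112694.1 were under 1 CPM in every library, so their likeness rests on few counts. For CDKN2A the nearest were PPP1R8, HADHA and POLE3, each at 0.02, and 290 genes lay within 0.1. These counts are out of 17479 genes tested. With only 4 libraries such likeness rests on few values, and it describes these libraries alone.

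The other genes of the pathway were examined as 6 lists, chosen with earlier results of these data known. Counts over these lists are thus a description and not a test. The lists held 45 genes, of which 44 were tested. Of these 0 were called, 0 had an unadjusted p-value under 0.05 as higher in treated cells and 4 as lower (edgeR), against 2.66% and 1.73% of all genes tested. D cyclins and their kinases were split, 2 above and 2 below 0, with CCND1 at 267 and 83.5 CPM in untreated cells and 319 and 317 CPM in treated cells, and CCND3 at 208 and 302 CPM in untreated cells and 185 and 161 CPM in treated cells. Of the 10 genes of E2F and DP factors 5 were above 0 and 5 below, and 3 and 7 without untreated replicate 2. E2F1, the activating factor held by RB1, had 61.0 and 188 CPM in untreated cells and 76.6 and 77.0 CPM in treated cells, and its DP partner TFDP1 had 197 and 72.2 CPM in untreated cells and 168 and 161 CPM in treated cells.

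Among the E and A cyclins with CDK2 and the phosphatase CDC25A, 4 of 5 genes were below 0, and 5 of 5 without untreated replicate 2. In 4 of the 5 both treated libraries lay below both untreated ones, against 11.5% of all genes tested. CDK2, the kinase bound by p21 and p27, had 108 and 169.9 CPM in untreated cells and 94.2 and 106 CPM in treated cells, so that the treated libraries lay just below both untreated ones. CCNA2 had 101 and 41.0 CPM in untreated cells and 80.3 and 88.6 CPM in treated cells. The MuvB core that joins RBL1 or RBL2 in the DREAM complex had 3 of 5 genes above 0, and 5 of 5 without untreated replicate 2. RBBP4 of that core had between 101 and 131 CPM, and LIN9 between 15.4 and 34.1 CPM. Of the genes of p27 turnover 2 of 4 were above 0, and 1 of 4 without untreated replicate 2, with CKS1B at 144 and 332 CPM in untreated cells and 152 and 163 CPM in treated cells, and SKP1 at between 115 and 168 CPM.

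The E2F target genes encode the machinery of DNA synthesis. Of the 16 genes of this list 15 were below 0 in log2 fold change, with a median of -0.68 against 0.01 over all genes tested. Both treated libraries lay below both untreated ones in 11 of the 16, against 11.5% of all genes tested. Since the list was chosen with earlier results of these data known, that count is a description and not a test. None of the 16 was called (edgeR), and 4 had an unadjusted p-value under 0.05, namely MCM5, MCM7, TK1 and ORC1. MCM5 and ORC1 are named because of these values, after they were seen. Untreated replicate 2 was the highest library in 12 of the 16, and without it 16 of 16 were below 0 with a median of -0.43, against 0.04 over all genes tested.

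MCM7, a subunit of the replicative helicase, had 530.0 and 846 CPM in untreated cells and 413 and 379 CPM in treated cells. TK1, the thymidine kinase of S phase, had 393 and 1155 CPM in untreated cells and 369 and 291 CPM in treated cells. MCM5, of the same helicase, had 249 and 501 CPM in untreated cells and 191 and 154 CPM in treated cells. ORC1, of the origin recognition complex, had 66.3 and 77.7 CPM in untreated cells and 43.1 and 37.9 CPM in treated cells, and its log2 fold change was -0.98 with all libraries and -0.85 without untreated replicate 2. For TK1 the log2 fold change was -1.38 with all libraries and -0.40 without untreated replicate 2. The same values were -1.27 and -0.67 for MCM5 and -0.95 and -0.57 for MCM7. In these 4 genes the treated libraries were below untreated replicate 1 as well. The gap was small for TK1 in treated replicate 1, at 369 against 393 CPM. POLA1 was the 1 gene of the list above 0 with all libraries, at 90.1 and 43.8 CPM in untreated cells and 78.0 and 93.1 CPM in treated cells.

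**Figure D5:**
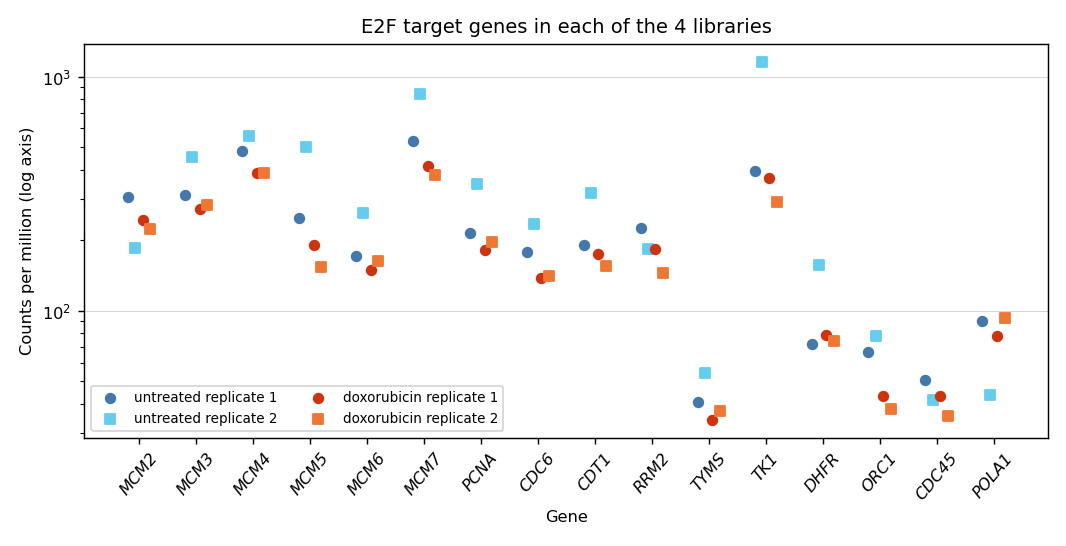
CPM (log axis) of the 16 E2F target genes in the 4 libraries, with 1 point per library. Both treated libraries lie below both untreated ones in 11 genes, and untreated replicate 2 is the highest library in 12.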

How the data were processed

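The 4 RNA-seq libraries (2 untreated, 2 with doxorubicin) were grouped by their titles. The design text calls the replicates biological. Quality filtering used FastQC and Cutadapt, mapping to hg38 used HISAT2, and the authors deposited whole-number counts per gene symbol without normalization. The methods name HTSeq, while the layout is that of featureCounts, and the file header names the basic annotation of GENCODE release 31. Versions and the use of strand are not given in the sources used here.

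Changes were fitted by glmQLFit and glmQLFTest of edgeR 4.0.16 under R 4.3.3 (low counts removed by filterByExpr, TMM factors, prior count 0.125), as doxorubicin over untreated, with the thresholds of the methods. DESeq2 1.42.0 was an alternative. The standard error is the log2 fold change divided by the root of the F statistic. CPM and RPKM use library totals, while fits use TMM factors. TMM factors also enter the log2 CPM of the library correlations, the differences of untreated replicate 2 and the nearest patterns. Lengths and positions come from GENCODE release 44 (GRCh38, basic transcripts), which matched 36718 of 59050 symbols. Promoter windows come from RefSeq (GRCh38.p14). The tests were tried on simulated counts first.

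Members and lists were chosen with earlier results of these data known. Named genes were the 10 members, the 2 genes of each pathway list with the highest mean CPM, overlapping transcripts and the 3 genes nearest to CDKN1A and to CDKN2A. Floors of 3 counts cover counting error alone. Alternatives were other tests, normalizations, filters, the replicate block, the prior count, transcript length and each library left out.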

Additional observations from a re-analysis of the deposited data

How the results depend on the processing

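The count of called members stayed at 0 under the other tests, normalizations and filters and with the replicate block, and was between 0 and 6 with each library left out, the 6 being without untreated replicate 1. Over all genes, where the quasi-likelihood test of edgeR called 0 (768 genes were under 0.05 before adjustment), the exact test gave 38 calls, the likelihood ratio test 64 and DESeq2 89. The replicate block gave 20 genes, and leaving out a library gave between 0 and 8697. The cause was not tested. The pairing check gave 0.0219 as the correlation between deviations of libraries that share a number, under the 0.1 taken as a sign of pairing. Since untreated replicate 2 stood apart, the untreated deviations largely reflect that library, so the check cannot decide on pairing. The block changed the call of no member.

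The sign of all 10 log2 fold changes was kept in the 90 values from settings other than leaving out a library. With a library left out, 5 of 40 values reversed. CDKN1B ran from -1.02 to 0.0277, CDKN1C from -0.27 to 0.93, CDKN2B from -0.80 to 0.66 and CDKN2D from -2.07 to 0.65. The number of members above 0 was between 4 and 8, and that of E2F target genes below 0 between 14 and 16, the latter count having been added after the data were seen. In the order of basal levels 2 genes changed rank with the longest protein-coding transcript, and between 2 and 5 with an untreated library left out. Library size alone moved the median log2 fold change of all genes from 0.01 to 0.17. At an unadjusted p-value under 0.05 the split of higher and lower genes was 465 and 303 with TMM, 648 and 152 with library size alone, and 579 and 964 with no filter.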
